A study of Mus musculus with 24 samples.

Results

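The genes described here are 10 regulators of photoreceptor and rod fate: the homeobox factors Otx2 and Crx, the leucine zipper factor Nrl, the nuclear receptors Nr2e3, Rorb and Esrrb, the MADS box factor Mef2d, the zinc finger factor Prdm1, and the sterile alpha motif proteins Samd7 and Samd11. They were named by symbol, with earlier results of these data known, and were found among the 33846 rows of the deposited gene table through their Ensembl identifiers. All 10 passed the filter on low counts that left 16792 genes. The RNA came from retinal organoids, tissue that folds into an optic cup in culture, grown from mouse embryonic stem cells under 3 methods. In SSCi the whole organoid stayed in static suspension. In SSCd the optic cup was cut out at day 10 (D10) and kept in static suspension, and in RWB such dissected cups were kept in a rotating-wall bioreactor, a turning vessel that holds tissue suspended. RWB gave 2 libraries at D18 and 3 each at D22 and D25. SSCd gave 3 libraries on each of D18, D22 and D28. SSCi gave 2 at D18, 2 at D25 and 3 at D32. No group had a treatment apart from its culture medium, which held 500 nM 9-cis retinal and 1 mM taurine. The medium changed during culture, with 2% serum, B27 supplement and amino acids present from D18 in the dissected cultures and from D26 in SSCi. Within the dissected cultures, and in SSCi from D25 to D32, day and medium cannot be told apart. SSCi D18 and D25 both came before the change of medium in SSCi. At D25, RWB had these additions and SSCi did not. The labels name a stem cell line from Nrl-GFP transgenic blastocysts, in which an Nrl promoter fragment drives a fluorescent protein, and a second line, R1. They call both lines wild type and do not say which sample came from which. The design text calls repeats biological replicates. The sources used here do not say what separated them, so p-values measure the spread between these libraries.

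Photoreceptors arise from dividing retinal progenitors in a chain of regulators. Otx2 starts the photoreceptor programme in cells leaving division and switches on Crx and Prdm1, Prdm1 holds back the bipolar alternative, and Rorb acts upstream of Nrl, which directs a precursor to become a rod. Nrl in turn drives Nr2e3, which represses cone genes in rods, while Crx, Mef2d and Esrrb work on shared rod genes and Samd7 and Samd11 carry Polycomb repression to genes that a rod should not express.

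Levels are given as CPM, estimated counts scaled to a common library total with trimmed mean of M values (TMM) factors, in replicate order. A change is called where the adjusted p of the edgeR quasi-likelihood test, over all genes tested, is under 0.05. Fold changes are on the log2 scale, and those of edgeR use its default prior count. A prior count of 2 was used only for log2 CPM values. Total estimated counts per library ran from 13284632 to 21604446. In 4 libraries mitochondrially encoded genes took over 8% of counts, namely replicate 1 of RWB D22 (10.2%), RWB D25 (13.1%), SSCd D18 (9.57%) and SSCd D22 (8.26%), against 2.46% to 5.76% in the other 20. Replicate 1 of SSCi D18 held 4263 CPM summed over 6 mesenchyme markers, Col1a2 and Postn foremost, against 20.0 CPM in replicate 2 and at most 178 CPM in any other library. As a check of the tissue, 6 rod markers summed to between 28.9 and 100.4 CPM in the D18 libraries and to between 2197 and 7319 CPM on each culture's last day, and 8 pluripotent cell markers to at most 24 CPM. In whole tissue, fewer cells of a type and less RNA per cell cannot be told apart.

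The genes differed widely in how far their group means spread. Samd7 differed 456-fold between its highest and lowest group, Nr2e3 287-fold, Nrl 119.7-fold and Samd11 57.4-fold. Crx differed 4.69-fold and Mef2d 4.37-fold. Prdm1 differed 4.17-fold, lowest in SSCi D32, and Otx2 1.99-fold, lowest in SSCd D28. Rorb differed 1.35-fold. Esrrb was near the limit of detection in most groups and highest in SSCi D32. Only values per transcript length can be compared between genes. As TPM, here the estimated counts divided by full transcript length and scaled to a common total, RWB D18 was led by Otx2 at 454 ± 0.544 and Crx at 298 ± 21.1 (SD, n = 2), with Prdm1 at 96.4 ± 7.28, while Nrl was at 7.31 ± 2.45, Nr2e3 at 2.31 ± 0.334 and Samd7 at 1.24 ± 0.831. SSCi D18 was also led by Otx2 at 453 ± 89.4 and Crx at 213 ± 42.4 (SD, n = 2). Nrl was there at 15.7 ± 0.950, Samd7 at 13.3 ± 8.66 and Nr2e3 at 7.49 ± 5.76. In SSCi D32 the order had turned from that of SSCi D18, with Crx at 1136 ± 49.8, Nrl at 1034 ± 43.8, Samd11 at 926 ± 159, Nr2e3 at 854 ± 55.5, Samd7 at 651 ± 25.9 and Otx2 at 584 ± 55.4 (SD, n = 3). Prdm1 was then at 28.4 ± 6.98 and Esrrb at 7.58 ± 2.31. The plot of levels by library shows these patterns.

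**Figure D1:**
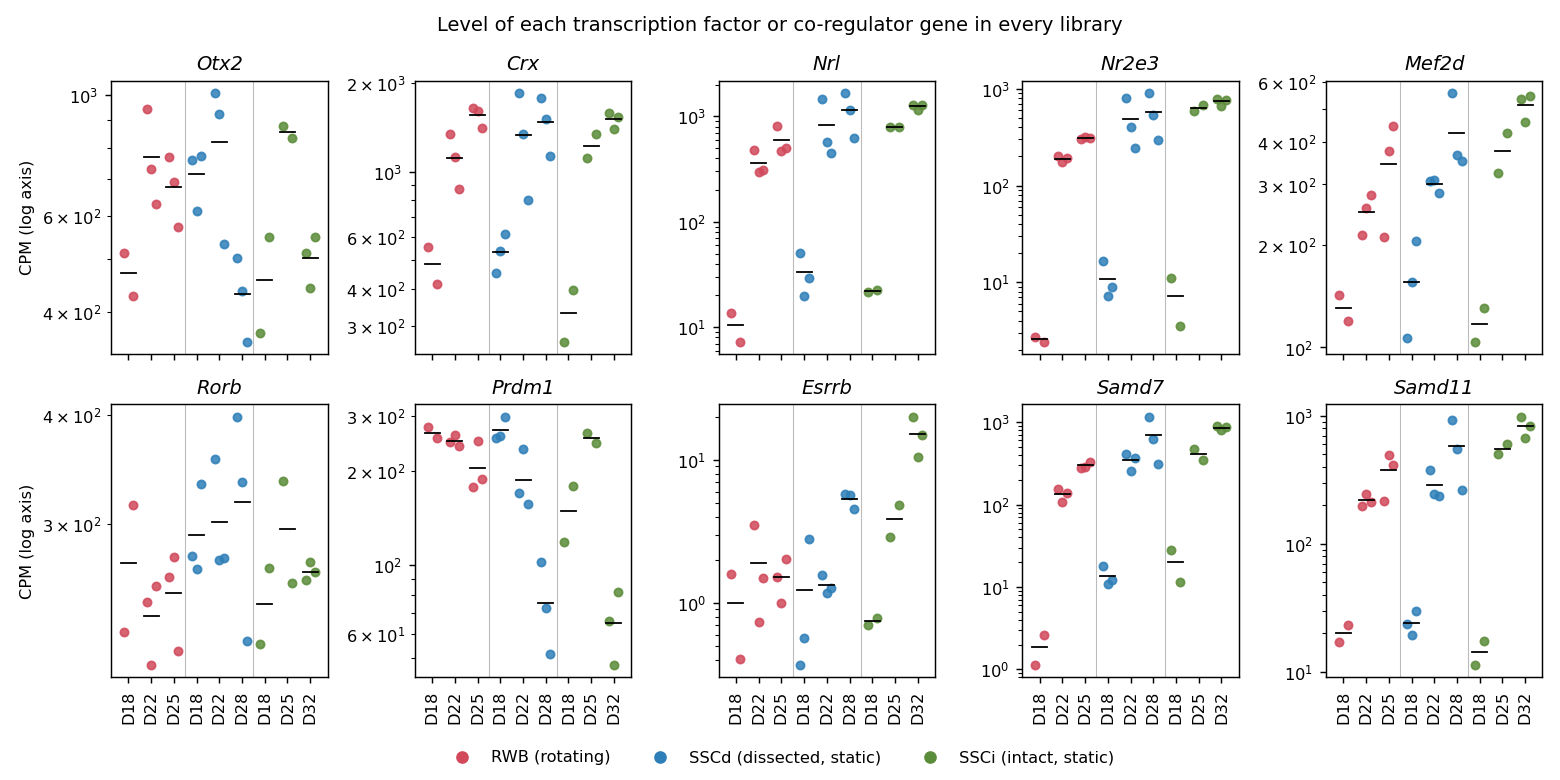
Level of each of the 10 genes in TMM-scaled CPM (log axis) for the 9 groups; each point is a library and each black bar a group mean. Nrl, Nr2e3, Samd7 and Samd11 rise from at most 50.7 CPM at D18 to at least 106 CPM in all later libraries, Rorb stays between 207 and 398 CPM in all 24 libraries, and Prdm1 is lowest in SSCd D28 and SSCi D32.

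The first question was how the regulators moved with time in each culture. From D18 to D22 in RWB, 6 of the 10 genes rose, against 6.01% of all genes tested, and none fell, against 4.88% of all. The median log2 fold change was 1.06 over the 10 genes and 0.01 over all genes. From D18 to D22 in SSCd, 6 rose, against 7.23% of all genes, and none fell, against 5.13%, and the median was 1.13 over the 10 and 0.01 over all. In SSCi from D18 to D25, 8 rose, against 8.89% of all genes, and none fell, against 10.9%, with medians of 2.13 and -0.06. Nrl, Nr2e3, Samd7, Samd11, Crx and Mef2d rose in each of these 3 steps. With 1 library left out in turn, 4 to 5 of the 10 were called in RWB, 5 to 6 in SSCd and 6 to 8 in SSCi. Fewer of the 10 were called in the later steps. Their median log2 fold change was then 0.47 in RWB, 0.36 in SSCd and 0.37 in SSCi, against 0.03, 0 and 0 over all genes. Of the 10 values, 7, 8 and 7 were positive. From D22 to D25 in RWB edgeR called 0 of the 10, against 5.2% of all genes, and DESeq2 and limma-voom each called 1. Samd7 and Samd11, 2 of the 10, had an unadjusted p under 0.05, as did 3074 of all 16792 genes. From D22 to D28 in SSCd, Otx2 and Prdm1 fell, 2 of 10 against 5.05% of all genes, and edgeR called none higher, against 3%. From D25 to D32 in SSCi, Prdm1 fell, 1 of 10 against 4.54% of all genes, and none rose, against 3.72%. With only the SSCi D25 and D32 libraries fitted, edgeR called 6 of the 10 in this step (Nrl, Otx2, Prdm1, Esrrb, Samd7 and Samd11). That fit called 3784 genes in all, against 1386 in the fit of all groups. Consecutive steps of a culture share its middle group, so their values are given side by side without a test between them.

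**Figure D2:**
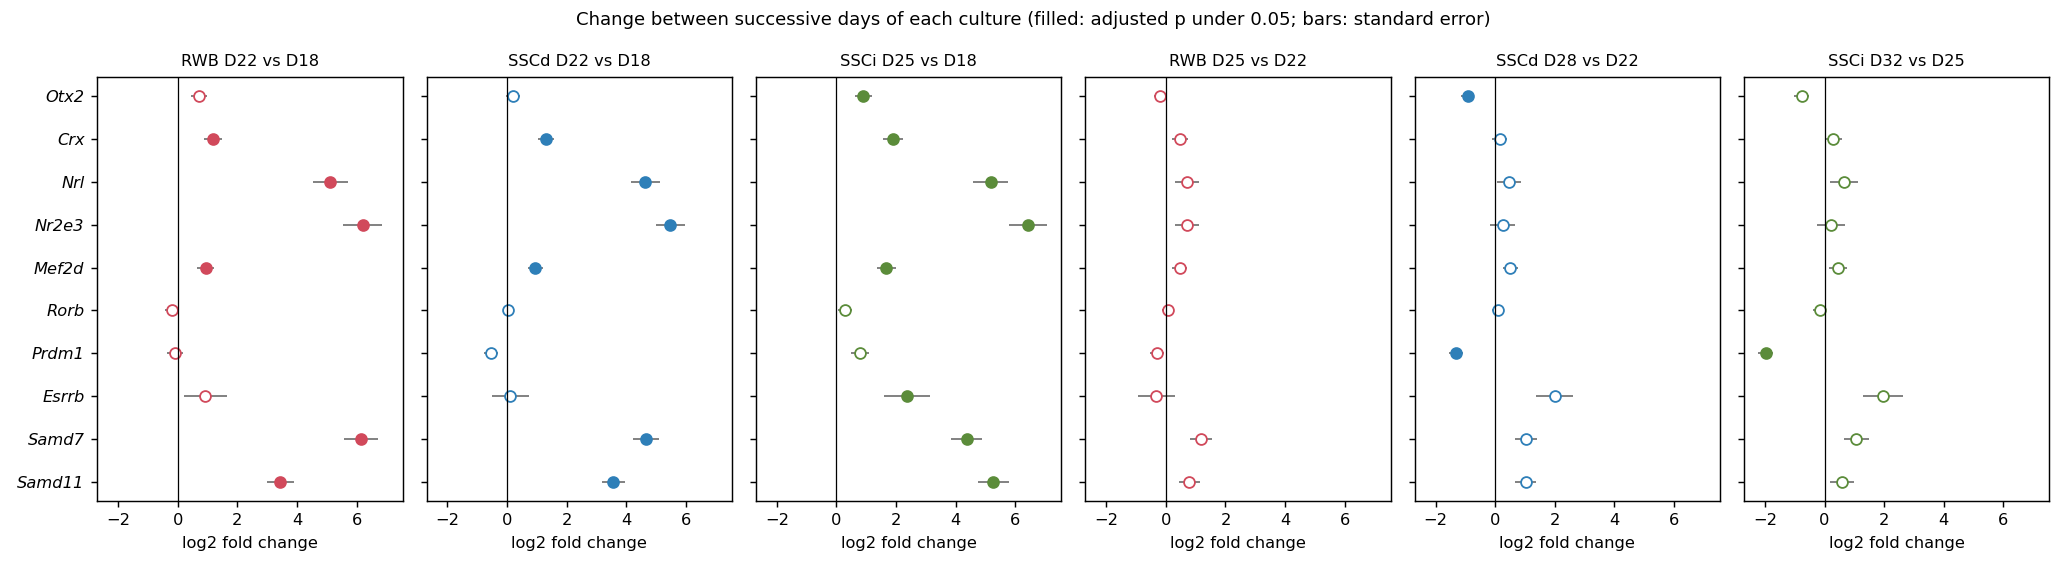
Log2 fold change of each gene in the 6 steps between sampled days (points) with its standard error (bars); filled points have an adjusted p under 0.05. In the first step of every culture Nrl, Nr2e3, Samd7 and Samd11 lie between 3.44 and 6.44, and in the later steps of the static cultures Prdm1 lies at -1.31 and -1.98.

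Otx2 (ENSMUSG00000021848.15, chr14:48657677-48673819 on the minus strand), the homeobox factor that opens the photoreceptor programme, was already high at D18. In RWB, Otx2 stood at 513 and 428 CPM at D18, 943, 730.2 and 632 CPM at D22 and 768, 693 and 571 CPM at D25. In SSCd, Otx2 stood at 759.6, 612 and 773 CPM at D18, 1006, 921 and 533 CPM at D22 and 502, 437 and 353 CPM at D28. In SSCi, Otx2 stood at 365 and 548 CPM at D18, 877 and 833 CPM at D25 and 514, 443 and 549 CPM at D32. The highest group was SSCi D25 at 855 ± 31.3 CPM (SD, n = 2) and the lowest SSCd D28 at 431 ± 74.7 CPM (SD, n = 3). Neighbouring groups in the order of means overlapped in their libraries, except RWB D25 and SSCi D32. The part of choroid plexus tissue in these levels was not tested. In replicate 1, its 6 markers summed to 572 CPM in RWB D22, 1043 CPM in RWB D25 and 552 CPM in SSCd D22. These libraries were highest in their groups for both the sum and Otx2. That also held for SSCi D25 replicate 1, at 56.2 CPM, and in none of the other groups. The sums of SSCd D28, 198 to 223 CPM, lay under all those of SSCd D22. In SSCd, Otx2 fell from D22 to D28 by 0.93 ± 0.23 (SE, edgeR adjusted p = 0.0154) on the log2 scale, and every D28 library lay under every D22 library. The call was lost without SSCd D22 replicate 1 (-0.77, adjusted p = 0.0857), SSCd D22 replicate 2 (-0.83, adjusted p = 0.0919) or SSCd D28 replicate 3 (-0.80, adjusted p = 0.0783). It was also lost without the 4 libraries of high mitochondrial share (-0.77, adjusted p = 0.0502), and the adjusted p ran from 0.00167 to 0.102 over its 14 alternatives. In SSCi, Otx2 rose from D18 to D25 by 0.90 ± 0.28 (SE, edgeR adjusted p = 0.0284). That call was lost without SSCi D18 replicate 1, the library rich in mesenchyme markers (0.65, adjusted p = 0.29), and without either D25 library (adjusted p = 0.095 and 0.103), and the adjusted p ran from 0.00827 to 0.29 over its 12 alternatives. From D25 to D32 the SSCi value was -0.77 ± 0.25 (SE, edgeR adjusted p = 0.0679), which did not pass, although the libraries of both days did not overlap.

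Crx (ENSMUSG00000041578.15, chr7:15865947-15879968 on the minus strand), the homeobox factor that acts downstream of Otx2 on both rod and cone genes, climbed from a level already high at D18. In RWB, Crx stood at 556 and 415 CPM at D18, 1340.1, 1122 and 873 CPM at D22 and 1637, 1608 and 1408 CPM at D25. In SSCd, Crx stood at 455, 537 and 615 CPM at D18, 1839, 1345 and 803 CPM at D22 and 1779, 1512 and 1125 CPM at D28. In SSCi, Crx stood at 265 and 396 CPM at D18, 1109 and 1336 CPM at D25 and 1579.8, 1393 and 1532 CPM at D32. All 17 later libraries lay above all D18 libraries. From D18 to D22, Crx rose by 1.20 ± 0.30 (SE, edgeR adjusted p = 0.0131) in RWB and by 1.31 ± 0.26 (SE, edgeR adjusted p = 0.0022) in SSCd, and in SSCi it rose by 1.89 ± 0.33 (SE, edgeR adjusted p = 0.00054) from D18 to D25. The RWB call was lost without RWB D18 replicate 2 (0.98, adjusted p = 0.236) or RWB D22 replicate 1 (1.05, adjusted p = 0.0632), and the adjusted p ran from 0.000685 to 0.236 over its 13 alternatives. The SSCd call was lost when the 4 libraries of high mitochondrial share were left out together (0.89, adjusted p = 0.0553), and the adjusted p ran from 1.31e-05 to 0.0553 over its 14 alternatives. After that step the level stayed between 1109 and 1779 CPM in the last sampled groups and in SSCi D25, and no later step was called. The Crx promoter is shown because the promoters of Crx, Samd7 and Samd11 and 1 of the 4 Otx2 promoters hold the core letters that OTX2 and CRX bind. The sequences are RefSeq's. RefSeq promoters, from 250 bases before to 50 after a start on GRCm38.p6, matched all 10 symbols at 15 starts, and they were searched on both strands for TAATCC (core of the OTX2 and CRX motif), TGCTGA (part of the NRL response element), AGGTCA (core bound by many nuclear receptors) and TCAAGGTCA (the longer form that ESRRB binds, which contains AGGTCA). The Crx promoter lies on the minus strand at chr7:15879906-15880205 and holds TAATCC, read as GGATTA on the strand shown, starting 94 and 21 bases before the start. Capitals mark these matches.
Crx: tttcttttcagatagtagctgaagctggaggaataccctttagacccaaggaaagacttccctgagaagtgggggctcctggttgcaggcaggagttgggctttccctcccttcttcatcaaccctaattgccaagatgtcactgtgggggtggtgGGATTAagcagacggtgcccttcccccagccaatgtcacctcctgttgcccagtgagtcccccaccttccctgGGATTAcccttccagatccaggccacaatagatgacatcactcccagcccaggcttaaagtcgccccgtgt
Of 32851 RefSeq mouse promoters of that length, 7.06% hold TAATCC on either strand, 19.5% TGCTGA, 16.3% AGGTCA and 0.423% TCAAGGTCA. A match is a description of the letters and not evidence of binding.

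Nrl (ENSMUSG00000040632.15, chr14:55518978-55524981 on the minus strand), the leucine zipper factor that sets rod fate, was low at D18 and rose steeply. In RWB, Nrl stood at 13.5 and 7.29 CPM at D18, 479, 298 and 311 CPM at D22 and 812, 471 and 500.2 CPM at D25. In SSCd, Nrl stood at 50.7, 19.9 and 29.4 CPM at D18, 1452, 574 and 453 CPM at D22 and 1649, 1144 and 624 CPM at D28. In SSCi, Nrl stood at 21.7 and 22.3 CPM at D18, 791 and 791 CPM at D25 and 1287, 1161 and 1293 CPM at D32. All libraries from D22 on lay above all D18 libraries, and the 3 SSCd D22 libraries spread from 453 to 1452 CPM. Nrl rose 34.8-fold in RWB from D18 to D22 (log2 fold change 5.12, SE 0.59, adjusted p = 2.46e-05 by edgeR). The rise was 24.8-fold in SSCd over the same days (log2 fold change 4.63, SE 0.48, adjusted p = 3.49e-06 by edgeR) and 36.0-fold in SSCi from D18 to D25 (log2 fold change 5.17, SE 0.60, adjusted p = 1.2e-05 by edgeR). Each of the 3 calls was made under all its alternatives, and the later steps were not called in any culture, except in SSCd from D22 to D28 without the 4 libraries of high mitochondrial share (1.14, adjusted p = 0.0345, over a range from 0.0345 to 0.926 over its 14 alternatives) and in SSCi when only its D25 and D32 libraries were fitted (0.67, adjusted p = 0.00352, over a range from 0.00352 to 0.76 over its 13 alternatives). In the order of group means, libraries of neighbouring groups overlapped except between RWB D22 and SSCd D18 and between SSCi D18 and RWB D18.

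Nr2e3 (ENSMUSG00000032292.8, chr9:59942771-59960659 on the minus strand), the nuclear receptor that acts under Nrl and represses cone genes in rods, rose over the same steps. In RWB, Nr2e3 stood at 2.72 and 2.43 CPM at D18, 202, 176 and 191 CPM at D22 and 302, 315 and 307 CPM at D25. In SSCd, Nr2e3 stood at 16.4, 7.29 and 8.93 CPM at D18, 802, 405 and 245 CPM at D22 and 897, 534 and 293 CPM at D28. In SSCi, Nr2e3 stood at 11.0 and 3.56 CPM at D18, 595 and 675 CPM at D25 and 786, 671 and 764 CPM at D32. The D18 libraries of all cultures lay far under the later ones, and RWB D22 and RWB D25 were the later groups with the lowest means. Nr2e3 rose 73.4-fold in RWB by D22 (log2 fold change 6.20, SE 0.64, adjusted p = 7.8e-06 by edgeR), 44.6-fold in SSCd by D22 (log2 fold change 5.48, SE 0.50, adjusted p = 1.41e-06 by edgeR) and 86.6-fold in SSCi by D25 (log2 fold change 6.44, SE 0.64, adjusted p = 2.67e-06 by edgeR). These calls too were made under all their alternatives. Without SSCi D18 replicate 1 the SSCi log2 fold change was 7.49. Over the 9 group means the profiles of Nrl and Nr2e3 correlated at 1.00 on the log2 scale, a description over groups that share their libraries.

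Samd7 (ENSMUSG00000051860.13, chr3:30746293-30767174 on the plus strand), a photoreceptor protein that recruits Polycomb repression, had the widest range of the set. In RWB, Samd7 stood at 1.13 and 2.63 CPM at D18, 156, 106 and 137 CPM at D22 and 275, 289 and 330.1 CPM at D25. In SSCd, Samd7 stood at 17.7, 11.0 and 12.1 CPM at D18, 409, 255 and 363 CPM at D22 and 1158, 626 and 307 CPM at D28. In SSCi, Samd7 stood at 28.0 and 11.6 CPM at D18, 465 and 351 CPM at D25 and 898, 799.7 and 872 CPM at D32. The 2 RWB D18 libraries lay under every other library, and the 3 SSCd D28 libraries spread from 307 to 1158 CPM. Samd7 rose by 6.14 ± 0.58 (SE, edgeR adjusted p = 4.21e-06) in RWB to D22, by 4.66 ± 0.43 (SE, edgeR adjusted p = 1.41e-06) in SSCd to D22 and by 4.36 ± 0.52 (SE, edgeR adjusted p = 1.56e-05) in SSCi to D25, and each call was made under all its alternatives. From D22 to D25 in RWB, where same-numbered libraries deviated together, Samd7 stood at 1.16 ± 0.37 (SE, edgeR adjusted p = 0.0803) without the replicate number as a block and was called with it (1.20, adjusted p = 0.0339), and the adjusted p ran from 0.0269 to 0.272 over its 14 alternatives. Its promoter, on the plus strand at chr3:30746043-30746342, holds TAATCC, read as GGATTA and in capitals, starting 139 bases before the start.
Samd7: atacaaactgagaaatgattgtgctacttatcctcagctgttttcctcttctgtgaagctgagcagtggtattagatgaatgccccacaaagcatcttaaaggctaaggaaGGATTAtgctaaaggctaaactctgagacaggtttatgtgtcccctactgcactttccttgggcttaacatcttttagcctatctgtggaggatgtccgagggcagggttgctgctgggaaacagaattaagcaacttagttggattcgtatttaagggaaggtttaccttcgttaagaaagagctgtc
Samd11 (ENSMUSG00000096351.2, chr4:156246966-156255657 on the minus strand), its partner protein, rose over the same steps. In RWB, Samd11 stood at 17.0 and 23.2 CPM at D18, 198, 244 and 212 CPM at D22 and 216, 494 and 415 CPM at D25. In SSCd, Samd11 stood at 23.5, 19.4 and 29.6 CPM at D18, 378, 245 and 236 CPM at D22 and 929.7, 547 and 261 CPM at D28. In SSCi, Samd11 stood at 11.3 and 17.5 CPM at D18, 502 and 598 CPM at D25 and 980.5, 667 and 825 CPM at D32. Later libraries lay above all D18 libraries in each culture. Samd11 rose by 3.44 ± 0.46 (SE, edgeR adjusted p = 0.000118) in RWB, 3.57 ± 0.39 (SE, edgeR adjusted p = 7.31e-06) in SSCd and 5.26 ± 0.52 (SE, edgeR adjusted p = 2.67e-06) in SSCi in the same steps, under all alternatives. Its promoter, on the minus strand at chr4:156255293-156255592, was the only one of the 15 that holds 3 of the 4 strings. TAATCC starts 193 bases before the start and again, read as GGATTA, 67 bases before it. TGCTGA starts 102 bases before the start, and AGGTCA starts 4 bases after it. Capitals mark these matches.
Samd11: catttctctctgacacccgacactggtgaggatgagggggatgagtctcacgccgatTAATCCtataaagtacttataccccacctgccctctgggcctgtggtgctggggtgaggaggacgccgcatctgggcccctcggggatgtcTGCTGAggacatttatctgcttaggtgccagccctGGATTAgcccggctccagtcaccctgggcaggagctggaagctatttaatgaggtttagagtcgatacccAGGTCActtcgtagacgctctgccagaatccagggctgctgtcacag
Among 20 genes of Polycomb complexes, edgeR called none higher or lower in either step of RWB or of SSCd. Cbx7, a reader subunit, was the 1 that rose in SSCi from D18 to D25 (2.20 ± 0.46, adjusted p = 0.00225 by edgeR), and Cbx2, another reader, the 1 that fell in SSCi from D25 to D32 (-1.28 ± 0.32, adjusted p = 0.0161). The median over the 20 genes lay between -0.24 and 0.03 in the 6 steps.

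Mef2d (ENSMUSG00000001419.17, chr3:88142372-88172086 on the plus strand), a factor that acts with CRX on photoreceptor genes, rose by smaller amounts. In RWB, Mef2d stood at 142 and 119 CPM at D18, 214, 256 and 279.8 CPM at D22 and 211, 376 and 444 CPM at D25. In SSCd, Mef2d stood at 106, 155 and 204 CPM at D18, 307, 309 and 283 CPM at D22 and 554, 366 and 352 CPM at D28. In SSCi, Mef2d stood at 104 and 130.4 CPM at D18, 325 and 425 CPM at D25 and 532, 458 and 546 CPM at D32. In every culture the D18 libraries lay under all later ones. Mef2d rose by 0.93 ± 0.29 (SE, edgeR adjusted p = 0.0453) in RWB to D22, by 0.95 ± 0.26 (SE, edgeR adjusted p = 0.0179) in SSCd to D22 and by 1.68 ± 0.32 (SE, edgeR adjusted p = 0.00112) in SSCi to D25. The SSCi call was made under all alternatives. The RWB call was lost when any 1 of the 5 libraries was left out, with edgeR adjusted p from 0.0552 to 0.37, and overall the adjusted p ran from 0.00901 to 0.37 over its 13 alternatives. The SSCd call was lost without SSCd D18 replicate 1 (0.74, adjusted p = 0.0946), SSCd D18 replicate 2, SSCd D22 replicate 1 or SSCd D22 replicate 2 (adjusted p = 0.0668, 0.0536 and 0.051). Without the 4 libraries of high mitochondrial share it stood at 0.71, adjusted p = 0.0671, and the adjusted p ran from 0.0039 to 0.0946 over its 14 alternatives.

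Esrrb (ENSMUSG00000021255.17, chr12:86361117-86521628 on the plus strand), an orphan nuclear receptor known both in rods and in pluripotent stem cells, was scarce until the last static days. In RWB, Esrrb stood at 1.59 and 0.405 CPM at D18, 3.50, 0.739 and 1.50 CPM at D22 and 1.51, 0.997 and 2.03 CPM at D25. In SSCd, Esrrb stood at 0.368, 0.565 and 2.79 CPM at D18, 1.56, 1.17 and 1.27 CPM at D22 and 5.76, 5.68 and 4.51 CPM at D28. In SSCi, Esrrb stood at 0.703 and 0.791 CPM at D18, 2.89 and 4.87 CPM at D25 and 20.0, 10.6 and 14.9 CPM at D32. The 3 SSCi D32 libraries lay above every other library and the 3 SSCd D28 libraries lay above the rest, apart from SSCi D25 replicate 2, which fell among them. Esrrb rests on few reads, from 5 to 316 estimated counts per library. Esrrb rose in SSCi from D18 to D25 by 2.37 ± 0.77 (SE, edgeR adjusted p = 0.0359), a call lost when any 1 of the 4 libraries was left out (adjusted p from 0.0511 to 0.199) and made in 7 of its 12 alternatives. From D22 to D28 in SSCd it stood at 1.99 ± 0.61 (SE, edgeR adjusted p = 0.0513) and, with the replicate block, at 2.03 (adjusted p = 0.0289), and the adjusted p ran from 0.012 to 0.177 over its 14 alternatives. From D25 to D32 in SSCi it stood at 1.96 ± 0.68 (SE, edgeR adjusted p = 0.0868) and did not pass, with the adjusted p running from 0.00248 to 0.391 over its 13 alternatives. The pluripotent marker list beside it summed to at most 24 CPM in any library, highest in SSCd D28 replicate 2, where Esrrb was at 5.68 CPM.

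Prdm1 (ENSMUSG00000038151.13, chr10:44437177-44528501 on the minus strand), the zinc finger repressor that keeps photoreceptor precursors from becoming bipolar cells, was the 1 regulator called lower in both later steps of static culture. In RWB, Prdm1 stood at 276 and 255 CPM at D18, 248, 262 and 239.8 CPM at D22 and 177, 249.7 and 188 CPM at D25. In SSCd, Prdm1 stood at 255, 259 and 299 CPM at D18, 170.3, 235 and 157 CPM at D22 and 102, 72.6 and 51.7 CPM at D28. In SSCi, Prdm1 stood at 118 and 179 CPM at D18, 265 and 247 CPM at D25 and 65.9, 47.5 and 81.4 CPM at D32. The 6 libraries of SSCd D28 and SSCi D32 lay under the other 18, and RWB D25 overlapped RWB D22. Prdm1 fell by 1.31 ± 0.24 (SE, edgeR adjusted p = 0.00173) on the log2 scale in SSCd from D22 to D28 and by 1.98 ± 0.26 (SE, edgeR adjusted p = 0.000102) in SSCi from D25 to D32, and both calls were made under all alternatives. In RWB from D22 to D25 it stood at -0.29 ± 0.23 (SE, edgeR adjusted p = 0.571). The days of the last RWB group and of the last static groups differ, and RWB tissue of D28 or D32 was not analysed here. In the same groups, 2 bipolar fate genes that Prdm1 is known to hold back were highest where Prdm1 was lowest, and whether the levels are linked was not tested. Vsx1, a homeobox factor of bipolar cells, averaged 0.840 ± 0.279 CPM in SSCd D22 and 5.50 ± 1.36 CPM in D28 (SD, n = 3 each), 0.324 ± 0.160 CPM (n = 2) in SSCi D25 and 6.002 ± 0.471 CPM (n = 3) in D32, and 0.714 ± 0.816 CPM (n = 3) in RWB D25. Bhlhe23, a helix-loop-helix factor of bipolar cells, averaged 12.9 ± 10.5 CPM in SSCd D28 and 18.7 ± 0.957 CPM in SSCi D32 and at most 1.42 CPM in every library of the other groups. Both genes rose in both later static steps by edgeR (adjusted p from 0.000249 to 0.00414), with 2 of 12 bipolar fate genes higher and 2 lower in SSCd and 3 higher and 1 lower in SSCi. In RWB from D22 to D25 none of the 12 was higher and 1 was lower. Of 6 bipolar cell markers, which include Vsx1, 2 rose in this RWB step, 4 in SSCd from D22 to D28 and 3 in SSCi from D25 to D32, with none lower and medians of 0.59, 1.75 and 1.71.

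Rorb (ENSMUSG00000036192.15, chr19:18930605-19111196 on the minus strand), the retinoid-related nuclear receptor that acts upstream of Nrl, had the narrowest range of the set as a gene. In RWB, Rorb stood at 226 and 315 CPM at D18, 245, 207 and 255 CPM at D22 and 261, 275 and 215 CPM at D25. In SSCd, Rorb stood at 276, 266 and 333 CPM at D18, 356, 273 and 274 CPM at D22 and 398, 335 and 221 CPM at D28. In SSCi, Rorb stood at 219 and 267 CPM at D18, 336 and 257 CPM at D25 and 259, 271 and 264 CPM at D32. Libraries of all 9 groups overlapped with those of the next group in the order of means. EdgeR called Rorb in none of the 14 comparisons of groups, and its log2 fold changes ran from -0.35 to 0.29 with standard errors from 0.20 to 0.24. The gene table is not the plain sum of the transcript table, and for Rorb the gene estimate was 0.833 to 1.54 times that sum across libraries. With the sum in its place, Rorb ran from 175 to 191 CPM in RWB D25 and was lower there than in SSCi D25 by 0.66 ± 0.21 on the log2 scale (edgeR adjusted p = 0.0471). This was the 1 call among 13 alternatives of that comparison, and no other comparison was called. None of these comparisons set D18 against the last day of a culture. In RWB the sum was 267 and 368 CPM at D18, above all D25 libraries, a difference that was not tested. In SSCd and SSCi the sums of the D18 and last-day libraries overlapped.

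Within the transcript estimates the share of counts shifted from 1 start site to another, and in RWB their sum was also lower at D25 than at D18. Rorb is transcribed from the minus strand of chromosome 19 and is known to give proteins with different N-terminal ends from separate first exons. On GRCm38 the upstream start, of transcript Rorb-203, is at 19111196 with a first exon from 19110552 to 19111196. The internal start of Rorb-201 and Rorb-202, whose first exon also begins Rorb-204 and Rorb-205, is at 19001117 with a first exon from 19001007 to 19001117, 110079 bases downstream. Rorb-204 and Rorb-205 are annotated as retained-intron transcripts. Transcripts of the upstream start were at 264 and 365 CPM in RWB D18, 167, 149 and 240.2 CPM in D22 and 86.8, 114 and 119.7 CPM in D25. In SSCd they were at 286, 304 and 349 CPM at D18, 196, 173 and 210.0 CPM at D22 and 83.3, 83.6 and 89.1 CPM at D28, and in SSCi at 255 and 301 CPM at D18, 199.8 and 193 CPM at D25 and 79.2, 85.4 and 84.3 CPM at D32. In each culture the libraries of the last day lay under all D18 libraries. Transcripts of the internal start, summed, were at 3.52 and 2.62 CPM in RWB D18, 62.6, 65.6 and 30.9 CPM in D22 and 88.4, 77.3 and 70.6 CPM in D25. In SSCd they were at 26.2, 2.03 and 7.15, then 116, 83.1 and 80.0, then 234, 182 and 95.8 CPM, and in SSCi at 14.7 and 3.81, then 145 and 68.7, then 174, 186 and 172 CPM. They went the other way, with every later library above the D18 libraries of its culture.
The share of the internal start in all Rorb transcripts was 1.32% and 0.705% in RWB D18, 27.2%, 30.6% and 11.4% in D22 and 50.5%, 40.4% and 37.1% in D25. In SSCd the shares were 8.37%, 0.665% and 2.01% at D18, 37.3%, 32.4% and 27.6% at D22 and 73.8%, 68.5% and 51.8% at D28. In SSCi they were 5.45% and 1.25% at D18, 42.1% and 26.3% at D25 and 68.7%, 68.6% and 67.1% at D32. In each culture the shares of the 3 days did not overlap. The shares of SSCd D28 and SSCi D32 all lay above those of RWB D25, whose day is earlier.

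**Figure D3:**
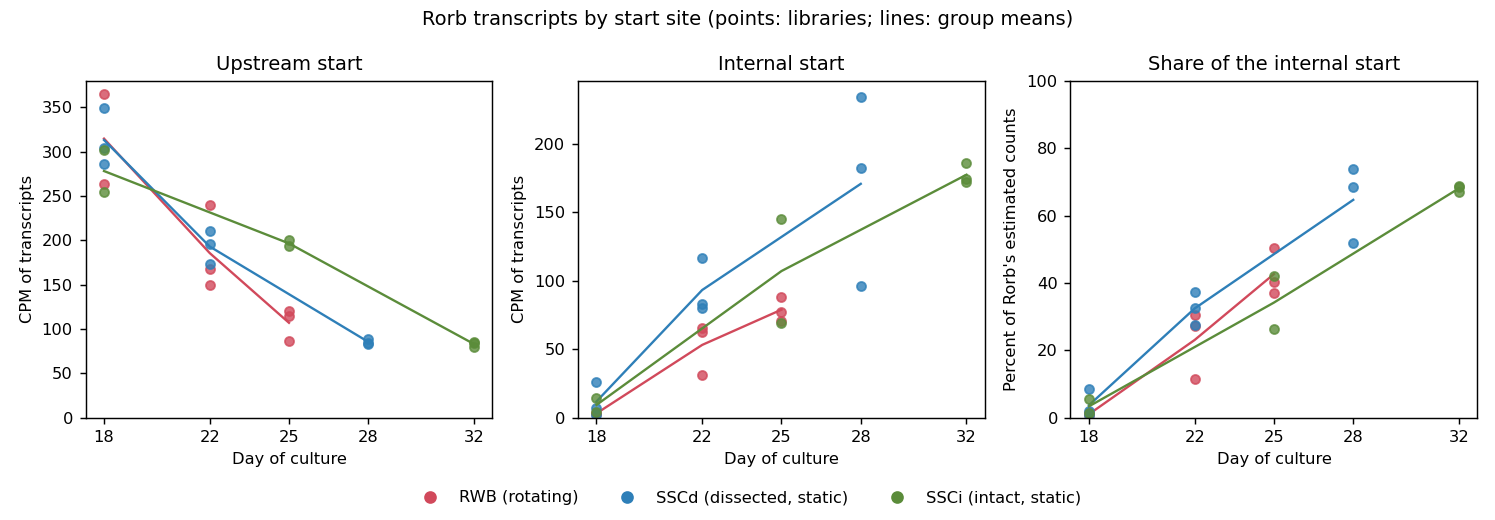
Rorb transcripts by start site against the day of culture: CPM of the upstream start (left), CPM of the internal start (middle) and percent share of the internal start (right), with 1 point for each library. The internal share lies under 9% in all D18 libraries and above 37% in all libraries of each culture's last day.

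A change in transcript usage between the first and the last day was tested with limma's diffSplice F-test over 10537 genes. In RWB from D18 to D25 Rorb was the 1 of the 10 genes called (limma adjusted p = 0.000321), against 3.24% of all genes. In SSCd from D18 to D28 it was again the 1 called (limma adjusted p = 2.27e-07), against 5.56% of all genes, and in SSCi from D18 to D32 too (limma adjusted p = 1.88e-06), against 4.86%. With transcripts averaging under 50 counts left out, the adjusted p was 0.207 in RWB, 0.000457 in SSCd and 0.0188 in SSCi, the highest of the 10, 11 and 10 alternatives, whose lowest were 8.2e-06, 1.63e-08 and 5.6e-07. These alternatives include edgeR's diffSpliceDGE, a test that failed on simulated data. Between cultures this F-test called none of the 10 genes. The shares of all genes called were 0.0854% (RWB against SSCd), 0.0475% (RWB against SSCi) and 0.104% (SSCd against SSCi) at D18, 0.237% at D22 and 0.484% at D25. On the last days they were 0.104% for RWB against SSCd, 1.05% for RWB against SSCi and 0.294% for SSCd against SSCi. The smallest adjusted p of limma's F-test for Rorb among them was 0.0577, in RWB D25 against SSCi D32. Limma's test of single transcripts against the others of their gene called 2 transcripts of the 10 genes between cultures. Rorb-201 was at 31.6, 34.7 and 49.2 CPM in RWB D25 and 152, 168 and 151 CPM in SSCi D32, without overlap, and its log2 fold change relative to the other Rorb transcripts was -2.59 (limma adjusted p = 0.0133), against 0.457% of 49712 transcripts. That call was lost without each of the 6 libraries in turn except RWB D25 replicate 3, and the adjusted p ran from 9.05e-05 to 0.0877 over its 10 alternatives. Otx2-205, a transcript of few counts, was at 3.12, 6.95 and 0 CPM in RWB D25, 19.4 and 12.3 CPM in SSCi D25 and 10.5, 7.63 and 9.94 CPM in SSCi D32. Relative to the other Otx2 transcripts it was at -4.06 against SSCi D25 (limma adjusted p = 0.0264), where 0.27% of transcripts were called, and at -4.13 against SSCi D32 (limma adjusted p = 0.0151). Without RWB D25 replicate 3, the library at 0, these values were -1.27 and -1.34 (adjusted p = 0.647 and 0.649). The 2 calls were made in 2 of 9 and 3 of 10 alternatives, and against SSCi D25 the call held in the left-out libraries only without SSCi D25 replicate 2, against SSCi D32 only without SSCi D32 replicate 1 or 2. The level of Rorb-203 alone fell by 1.56 ± 0.19 (SE, edgeR adjusted p = 5e-05) on the log2 scale from D18 to D25 in RWB. It fell by 1.87 ± 0.18 (SE, edgeR adjusted p = 2.62e-06) to D28 in SSCd and fell by 1.74 ± 0.19 (SE, edgeR adjusted p = 9.68e-06) to D32 in SSCi. These 3 calls were made under all alternatives, against 3.96%, 4.84% and 5.76% of 55538 transcripts called lower. In the later static steps Rorb-203 fell by 1.18 ± 0.18 (SE, edgeR adjusted p = 0.00251) in SSCd and fell by 1.24 ± 0.19 (SE, edgeR adjusted p = 0.00251) in SSCi, against 0.828% and 0.78% of transcripts, again under all alternatives. In RWB from D22 to D25 it fell by 0.80 ± 0.18 (SE, edgeR adjusted p = 0.0402), against 0.612%, and in SSCd from D18 to D22 it fell by 0.70 ± 0.18 (SE, edgeR adjusted p = 0.0442), against 0.564%. These 2 calls were made in 3 and 2 of 9 alternatives, with an adjusted p from 0.0127 to 0.223 and from 0.0133 to 0.168. The RWB call was lost without each library in turn except RWB D22 replicate 2, and the SSCd call without each of its 6 libraries in turn. At D25 the log2 fold change of Rorb-203 in RWB against SSCi was -0.88 ± 0.19 (SE, edgeR adjusted p = 0.0357), against 0.753% of transcripts, a call made in 3 of 8 alternatives with an adjusted p from 0.00566 to 0.209, the highest without RWB D25 replicate 1. Of the 5 libraries left out in turn, it held only without RWB D25 replicate 3. Rorb-201 and Rorb-203 share their later exons up to the long last exon, so the split between them rests on reads of the differing first exons and carries an assignment error that is not in these SDs. Rorb-202 has 11 exons and ends elsewhere, and Rorb-204 and Rorb-205 retain introns, so their counts can rest on other reads. Of the mean internal share of 42.6% in RWB D25, Rorb-201 held 20.7% and Rorb-202 12.2%. Of that of 68.1% in SSCi D32, they held 60.4% and 4.18%. The F-test called none of the other 9 genes. Crx-201, for example, held between 86.9% and 94.6% of Crx transcripts in the group means.
The promoters of both Rorb starts are shown because the transcripts of these starts went in opposite directions. The upstream promoter, on the minus strand at chr19:19111147-19111446, holds TGCTGA, in capitals, starting 77 bases before the start. The internal promoter, on the minus strand at chr19:19001068-19001367, holds none of the 4 letter strings searched.
Rorb upstream start: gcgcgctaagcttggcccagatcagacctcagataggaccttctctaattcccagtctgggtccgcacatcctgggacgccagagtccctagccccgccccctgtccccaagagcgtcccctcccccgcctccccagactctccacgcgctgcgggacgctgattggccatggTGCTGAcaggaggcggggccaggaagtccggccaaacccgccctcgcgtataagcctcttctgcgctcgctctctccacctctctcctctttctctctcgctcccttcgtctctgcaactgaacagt
Rorb internal start: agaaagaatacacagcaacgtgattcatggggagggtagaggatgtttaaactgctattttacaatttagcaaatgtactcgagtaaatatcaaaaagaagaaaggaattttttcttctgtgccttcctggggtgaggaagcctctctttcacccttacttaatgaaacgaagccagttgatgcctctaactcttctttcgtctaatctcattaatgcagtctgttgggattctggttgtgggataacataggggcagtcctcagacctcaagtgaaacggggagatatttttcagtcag

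The second question was whether rotation or dissection changed these regulators. At D18, RWB was compared with SSCd, in which the cups were cut out on the same day but kept static. All 10 log2 fold changes were negative, with a median of -0.28 against 0 over all genes, and 1 gene, Samd7, was called lower, against 0.417% of all genes, and none higher, against 0.0715%. Samd7 was at 1.88 ± 1.06 CPM (SD, n = 2) in RWB and 13.6 ± 3.63 CPM (SD, n = 3) in SSCd (log2 fold change -2.85, SE 0.52, adjusted p = 0.017 by edgeR), and the libraries did not overlap. The call was lost without RWB replicate 1 (-2.38, adjusted p = 0.179), RWB replicate 2 (-3.57, adjusted p = 0.15), SSCd replicate 1 (-2.61, adjusted p = 0.0673) or all 4 libraries of high mitochondrial share (-2.62, adjusted p = 0.0623), and the adjusted p ran from 8.28e-07 to 0.179 over its 13 alternatives. Nrl (-1.67, adjusted p = 0.201) and Nr2e3 (-2.07, adjusted p = 0.118) did not pass, with an adjusted p from 0.0195 to 0.995 over its 13 alternatives and from 0.00452 to 0.729 over its 13 alternatives. DESeq2 and the fit with the replicate block each called both. Against SSCi at D18, RWB again had lower Samd7 (log2 fold change -3.40, SE 0.54, adjusted p = 0.00307 by edgeR), 1 of 10 genes against 4.32% of all, and none of the 10 was higher, against 0.911%. Without SSCi D18 replicate 1, the library rich in mesenchyme markers, this value was -2.63 (adjusted p = 0.0414), and without RWB D18 replicate 1 it was -2.89, adjusted p = 0.0619, with the adjusted p running from 1.21e-08 to 0.316 over its 13 alternatives. These 2 comparisons share the RWB libraries. Rod markers summed to 39.9 to 61.0 CPM in RWB D18, 55.1 to 100.4 CPM in SSCd D18 and 28.9 to 41.8 CPM in SSCi D18, and their part in the Samd7 difference was not tested.
Between dissected and intact static tissue at D18 edgeR called 0 of the 10 genes, against 3.86% of all genes, while DESeq2 called 1 and limma-voom 0. An unadjusted p under 0.05 was held by 3 of the 10 and by 2049 of all 16792 genes. Prdm1 came closest, at 271 ± 24.1 CPM (SD, n = 3) in SSCd and 148 ± 43.2 CPM (SD, n = 2) in SSCi (log2 fold change 0.87, SE 0.27, adjusted p = 0.0848 by edgeR). It passed without SSCi replicate 2 (1.26, adjusted p = 0.0269), and without SSCi replicate 1 its log2 fold change was 0.59. The adjusted p ran from 0.0269 to 1 over its 13 alternatives.

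At D22, edgeR called 0 of the 10 genes between RWB and SSCd, against 1.89% of all genes. An unadjusted p under 0.05 was held by 3 of the 10 and by 2194 of all 16792 genes. Of the 10 values 8 were negative, with a median of -0.31. Samd7 was at 133 ± 24.8 CPM (SD, n = 3) in RWB and 343 ± 78.9 CPM (SD, n = 3) in SSCd (log2 fold change -1.37, SE 0.38, adjusted p = 0.0694 by edgeR), Nr2e3 at 189.6 ± 12.8 CPM (SD, n = 3) and 484 ± 287 CPM (SD, n = 3) (log2 fold change -1.35, SE 0.42, adjusted p = 0.116 by edgeR), and Nrl at 363 ± 101 CPM (SD, n = 3) and 826 ± 545 CPM (SD, n = 3) (log2 fold change -1.19, SE 0.41, adjusted p = 0.181 by edgeR). Every RWB library lay under every SSCd library for Samd7 and Nr2e3, while Nrl overlapped. Libraries with the same number moved together in these groups, and with the number as a block edgeR called 2, Samd7 (-1.36, adjusted p = 0.0326) and Nrl (-1.08, adjusted p = 0.0488). DESeq2 called Samd7 and Nr2e3, limma-voom called Samd7, edgeR on these groups alone called Samd7, and over the alternatives the adjusted p ran from 0.013 to 0.324 for Samd7, 0.0366 to 0.558 for Nr2e3 and 0.0488 to 0.651 for Nrl. Without SSCd D22 replicate 3, Nr2e3 was called (-1.67, adjusted p = 0.0442). The summed rod markers were 939 to 1952 CPM in RWB and 1154 to 3859 CPM in SSCd, and the summed cone markers 781 to 1736 and 384 to 1115 CPM, and their part in these values was not tested. An interaction term asked whether the 2 dissected cultures changed by unequal amounts between D18 and D22. EdgeR called 0 of the 10 genes and 0% of all genes, with 1 of the 10 (Samd7, 1.48 ± 0.62 SE) and 525 of all genes at an unadjusted p under 0.05, and DESeq2 called 12 genes, none of them among the 10.
At D25, RWB and SSCi differed in rotation, in dissection and in the serum, B27 and amino acids of the medium. Their comparison does not separate these differences. EdgeR called 0 of the 10 genes between RWB and SSCi at D25, against 8.68% of all genes, and DESeq2 called 0 as well. The 1 gene of the 10 with an unadjusted p under 0.05 was Nr2e3, at 308 ± 6.57 CPM (SD, n = 3) and 635 ± 56.4 CPM (SD, n = 2) (log2 fold change -1.04, SE 0.45, adjusted p = 0.149 by edgeR). Such an unadjusted p was held by 4376 of all 16792 genes. With gene values taken as sums of transcript estimates edgeR called 1, Rorb, as given above.

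The last sampled days of RWB, SSCd and SSCi are D25, D28 and D32, so in these comparisons culture and day cannot be told apart. Prdm1 was higher in RWB D25, at 205 ± 39.0 CPM (SD, n = 3), than in SSCd D28, at 75.4 ± 25.3 CPM (SD, n = 3), by 1.44 ± 0.24 (SE, edgeR adjusted p = 0.00194), 1 of 10 genes against 1.11% of all, and none of the 10 was lower, against 1.95%. The call was lost when only these 2 groups were fitted (1.44, adjusted p = 0.0952), and the adjusted p ran from 6.98e-07 to 0.0952 over its 14 alternatives. Against SSCi D32, at 64.9 ± 16.9 CPM (SD, n = 3), Prdm1 was higher in RWB by 1.66 ± 0.24 (SE, edgeR adjusted p = 0.000296), 1 of 10 against 4.75% of all genes, under all alternatives. RWB D25 was lower than SSCi D32 in 3 of the 10 genes, against 5.08% of all. Esrrb was at 1.51 ± 0.517 CPM (SD, n = 3) against 15.1 ± 4.73 CPM (SD, n = 3) (log2 fold change -3.31, SE 0.63, adjusted p = 0.00274 by edgeR), a call made under all alternatives. Samd7 was at 298 ± 28.7 CPM (SD, n = 3) against 857 ± 51.1 CPM (SD, n = 3) (log2 fold change -1.52, SE 0.38, adjusted p = 0.0155 by edgeR). Its call was lost without RWB D25 replicate 1 (-1.50, adjusted p = 0.058), SSCi D32 replicate 3 (-1.51, adjusted p = 0.0509) or the 4 libraries of high mitochondrial share (-1.47, adjusted p = 0.0733), and the adjusted p ran from 0.00105 to 0.0733 over its 14 alternatives. Samd11 was at 375 ± 143 CPM (SD, n = 3) against 824 ± 157 CPM (SD, n = 3) (log2 fold change -1.14, SE 0.35, adjusted p = 0.0481 by edgeR), a call lost without 5 of the 6 libraries in turn, all but RWB D25 replicate 2, and made in 5 of 14 alternatives, with the adjusted p from 0.0135 to 0.221. Nr2e3 (-1.26, adjusted p = 0.0583) and Nrl (-1.07, adjusted p = 0.105) did not pass, although all RWB libraries lay under all SSCi libraries for both. Nr2e3 passed in 4 of its 14 alternatives, among them DESeq2 and limma-voom, with an adjusted p from 0.00751 to 0.166 over its 14 alternatives. Without the 4 libraries of high mitochondrial share Nrl passed (-1.37, adjusted p = 0.0214), and the adjusted p ran from 0.0114 to 0.23 over its 14 alternatives. In Prdm1, Esrrb, Samd7 and Samd11 the RWB D25 and SSCi D32 libraries did not overlap. These comparisons share the RWB D25 libraries. Summed rod markers were 2197 to 2865 CPM in RWB D25, 2352 to 6733 CPM in SSCd D28 and 5581 to 7319 CPM in SSCi D32, and summed cone markers 799 to 2183, 276 to 361 and 187 to 292 CPM, and their part in these differences was not tested. Between SSCd D28 and SSCi D32 edgeR called 0 of the 10 genes, against 0.0834% of all, and DESeq2 and limma-voom called 0. Of the 10, Esrrb alone had an unadjusted p under 0.05, at -1.51 ± 0.58 (SE, edgeR adjusted p = 0.637). Such an unadjusted p was held by 954 of all 16792 genes.

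**Figure D4:**
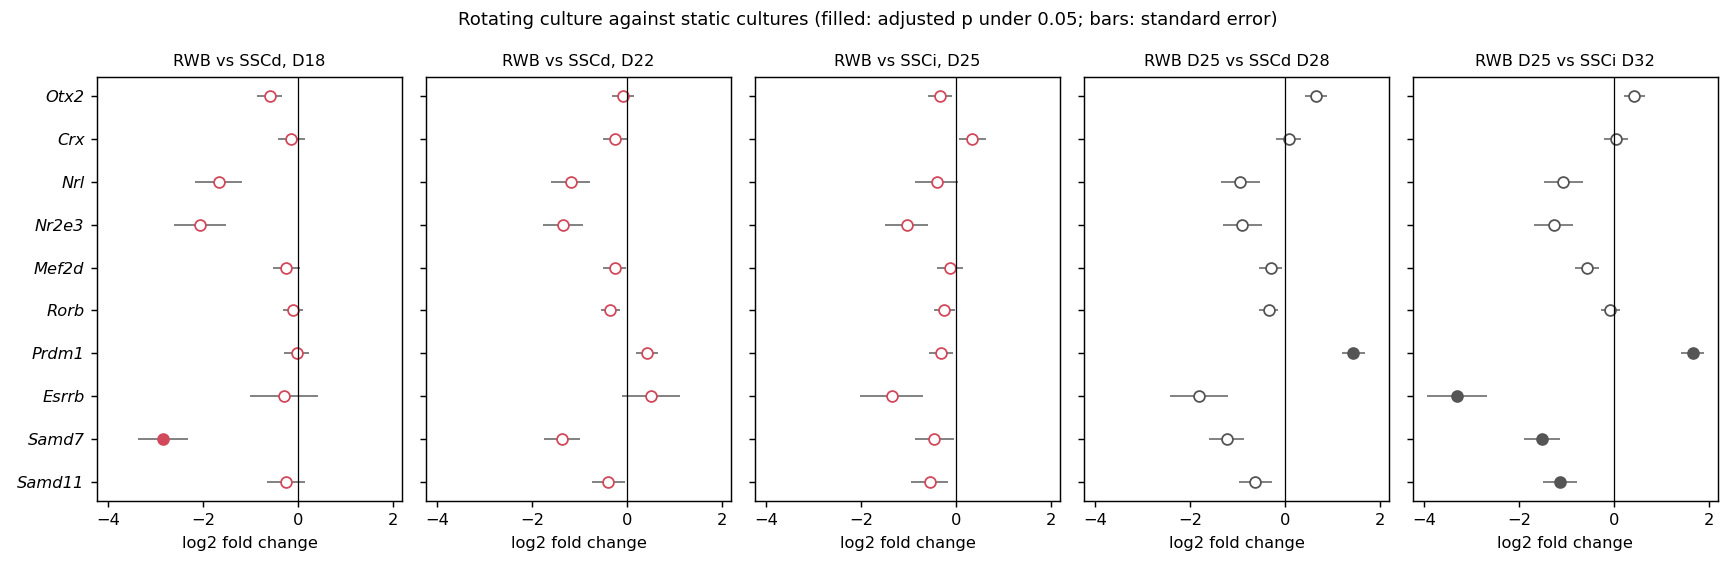
Log2 fold change of each gene in RWB against a static culture (points) with its standard error (bars), for 3 comparisons on the same day (red) and 2 between last sampled days (grey); filled points have an adjusted p under 0.05. Samd7 lies under 0 in each panel, and Prdm1 lies at 1.44 and 1.66 in the panels of the last days.

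The genes around these regulators were read from lists of known targets and partners, with log2 fold changes ± SE and edgeR adjusted p. The shares of all genes called in each comparison are those given above, and the median over all genes lay between -0.06 and 0.04 in each. Some of these shares joined both directions. By direction, 331 of 16792 genes rose and 542 fell from D22 to D25 in RWB. At D22, 68 were higher and 250 lower in RWB than in SSCd. At D25, 605 were higher and 853 lower in RWB than in SSCi. Of 30 rod genes known as targets of Nrl and Crx, 22 rose in RWB from D18 to D22, 28 in SSCd over the same days and 28 in SSCi from D18 to D25, with none lower and medians of 2.91, 3.53 and 3.49. Prph2, a disc rim protein, rose in RWB (log2 fold change 5.76 ± 0.54, adjusted p = 4.21e-06), and Pde6b, a subunit of the rod phosphodiesterase, rose in SSCd (7.83 ± 0.55, adjusted p = 7.05e-08). In the later RWB step none of the 10 regulators was called, although 7 of their values were positive and their median was 0.47. Of these targets, 11 rose in that step, with a median of 1.18, and 15 rose in SSCd from D22 to D28 and 18 in SSCi from D25 to D32. Of the same 30, 8 were lower in RWB than in SSCd at D22 (median -0.93), 10 lower in RWB D25 than in SSCd D28 (-1.28) and 15 lower in RWB D25 than in SSCi D32 (-1.51), with none higher, while 6 were higher and 2 lower in RWB than in SSCi at D25 (0.43). Slc24a1, the rod sodium, calcium and potassium exchanger, was lower in RWB than in SSCd at D22 (-3.08 ± 0.41, adjusted p = 0.000658).
Of 14 tested cone genes known to rise where Nrl, Nr2e3 or Samd7 is missing, 9 were higher and 2 lower in RWB D25 than in SSCd D28 (median 1.75), and 10 higher and 2 lower than in SSCi D32 (1.60). At D22 3 were higher and 2 lower in RWB than in SSCd (0.56). Gnat2, the cone transducin subunit, was at 139 ± 52.6 CPM in RWB D22 and 20.9 ± 10.0 CPM in SSCd D22 (2.73 ± 0.46, adjusted p = 0.00375). Kcne2, which is on this list and also a choroid plexus marker, went the other way (-2.61 ± 0.43, adjusted p = 0.00375). Of 12 cone fate factors, Sall3 was higher in RWB at D22 (3.40 ± 0.42, adjusted p = 0.000378) and Onecut1 lower (-1.27 ± 0.29, adjusted p = 0.0241).
Of 20 fate factors that act before the photoreceptor regulators, 8 fell and none rose in RWB from D18 to D22, 8 fell and 1 rose in SSCd, and 9 fell and 2 rose in SSCi from D18 to D25. Atoh7, a helix-loop-helix factor of early neurogenesis, went from 469.6 ± 33.9 CPM in RWB D18 to 34.6 ± 18.2 CPM in D22 (-3.76 ± 0.45, adjusted p = 3.55e-05). In the later steps 10 fell in RWB, 14 in SSCd and 12 in SSCi. Of 20 other regulators and partners, 5 rose and 1 fell in RWB, 6 rose and 1 fell in SSCd and 5 rose and 2 fell in SSCi in the first steps. Ankrd33, a photoreceptor cofactor that binds CRX, was at 1.37 ± 0.410 CPM in RWB D18 and 18.0 ± 2.18 CPM in RWB D22 (3.70 ± 0.61, adjusted p = 0.000661), and at 117 ± 23.2 CPM in SSCi D32. Pias3, a SUMO ligase that acts on Nr2e3, went from 66.4 ± 11.7 CPM to 179.6 ± 22.3 CPM in SSCd (1.44 ± 0.25, adjusted p = 0.000653).

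The nearest profiles among 10866 genes, by Pearson correlation of log2 CPM over the 9 group means, are given as a description, since the groups share their libraries and most genes of maturing rods rise together. Nrl was closest to Pde6b (0.993), Samd7 to Impdh1 and Prph2 (0.993 and 0.992), Mef2d to Impg1 (0.995), Samd11 to Gal3st3 (0.996) and Crx to Zdhhc12 and Prcd (0.996 each). Nr2e3 was closest to Pdk2 (0.992). The profiles of Otx2 (Rreb1, 0.949), Prdm1 (Dmap1, 0.965), Esrrb (Zfp773, 0.982) and Rorb (Map1s, 0.878) were closest to genes outside the lists of rod genes. Among the 10 genes themselves, Mef2d and Samd11 correlated at 0.99 and Prdm1 and Otx2 at 0.63, while Prdm1 and Esrrb went in opposite directions at -0.75.
In some groups 1 library was the highest or the lowest for most of the 10 genes. In SSCd D28, replicate 1 was the highest library for 10 of 10 genes and replicate 3 the lowest for 10 of 10, and the rod markers of these libraries summed to 6733 and 2352 CPM. In SSCd D22, replicate 1 was highest for 8 of 10, and in SSCi D32 replicate 2 was lowest for 9 of 10. In RWB D25 no library was highest for more than 4 of the 10 or lowest for more than 5, and in SSCi D25 each library was highest for 5. The standard deviation of Samd7 in SSCd D28, 430.1 CPM on a mean of 697 CPM, was larger than that in SSCi D32, 51.1 CPM on 857 CPM.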

How the data were processed

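Polyadenylated RNA of 24 libraries was sequenced after a stranded preparation, per the labels' protocols. The authors deposited estimated counts per transcript and per gene, made with kallisto 0.42.5 on GRCm38.p5 per the submitters' processing notes, which also name edgeR 3.13.9 and limma 3.32.2. How the gene table was made from transcripts is not given in the sources used here: gene estimates were 0.864 to 1.20 times the transcript sums (5th to 95th percentile). A deposited table of normalized values was not used.

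Estimated counts were rounded, and 16792 of 33846 rows passed edgeR's filter. The test was edgeR 4.0.16's quasi-likelihood F-test (R 4.3.3, TMM factors, all 9 groups in 1 fit, Benjamini-Hochberg over all genes, a call at an adjusted p under 0.05). Symbols and coordinates came from GENCODE M21 (33331 identifiers matched) and promoters from RefSeq. The planned transcript usage test, edgeR's diffSpliceDGE, failed on simulated data and was replaced by limma 3.58.1's diffSplice on voom values. It was kept among the alternatives of the usage tests between first and last days. The fits were tested on simulated data. DESeq2 1.42.0, limma-voom, other scalings and filters, left-out libraries, a replicate block and transcript sums were alternatives. The transcript sums, the fits without 4 libraries of over 8% mitochondrial counts and those of single transcripts were added after seeing the data.

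The 10 genes, 7 lists of related genes and 13 marker lists were chosen with earlier results of these data known. Named are all 10 genes and, from a list, up to 3 called genes per comparison. Replicate numbers in the labels paired libraries where 3 pairs all deviated together at a correlation over 0.1: RWB D22 with SSCd D22 (0.70, 0.52 and 0.63), RWB D25 with D22, SSCd D22 with D18, SSCd D28 with D22, and RWB D25 with SSCd D28. With 2 libraries in a group this cannot be decided. Totals of 13284632 to 21604446 estimated counts bound the precision of low genes. The values of 1 listed gene are not reported here.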

Additional observations from a re-analysis of the deposited data

How the results depend on the processing

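Leaving out 1 library kept direction and side of the threshold in 428 of 472 values of single genes, and the other alternatives in 619 of 685. The number of the 10 genes called changed as follows. For RWB against SSCd at D18 (1 called), DESeq2 called 3, the replicate block 3, and limma-voom, the groups compared alone and the fit without the 4 libraries of high mitochondrial share each 0. For RWB against SSCd at D22 (0), the replicate block and DESeq2 called 2 each, limma-voom and the groups alone 1 each. For SSCd against SSCi at D18 (0) DESeq2 called 1, and for RWB against SSCi at D18 (1) the groups alone called 0. For RWB against SSCi at D25 (0) transcript sums gave 1. For RWB D25 against D22 (0) the replicate block, limma-voom and DESeq2 called 1 each. For SSCd D28 against D22 (2), DESeq2 called 5 and the fit without the high mitochondrial libraries 4. For SSCi D32 against D25 (1), limma-voom and transcript sums called 2, DESeq2 and the fit without those libraries 3, and the groups alone 6. The fit of these groups alone called 3784 genes in all, against 1386 in the fit of all groups. For RWB D25 against SSCd D28 (1) DESeq2 called 3 and the groups alone 0. For usage of transcripts in RWB, 0 were called where transcripts averaged at least 50 counts. With 1 library left out in turn, the counts ran from 0 to 1 (RWB against SSCd at D18 and at D22, SSCd against SSCi at D18), 0 to 3 (RWB against SSCi at D18), 1 to 3 (SSCd D28 against D22), 1 to 2 (RWB D25 against SSCd D28), 2 to 4 (RWB D25 against SSCi D32), 4 to 5 (RWB D22 against D18, with 6 called in all libraries), 5 to 6 (SSCd D22 against D18) and 6 to 8 (SSCi D25 against D18). The cause was not tested for any of these, apart from fewer libraries in the fits that leave some out. Values of 4 results that were not called changed sign. Esrrb in RWB against SSCd at D22 (0.50) stood between -0.25 without RWB D22 replicate 1 and 0.89, and at -0.11 without the high mitochondrial libraries. Esrrb in SSCd against SSCi at D18 ran from -0.65 without SSCd D18 replicate 3 to 1.14, and its interaction from -0.57 without that library to 2.12. Samd7 in SSCd against SSCi at D18 ran from -0.99 to 0.22, the latter without SSCi D18 replicate 1. The replicate block changed other calls only where given beside the results, and where pairing could not be shown it is an alternative only. For RWB against SSCi at D18, whose same-numbered libraries deviated oppositely (-0.38), the crossed block called 1004 genes against 973 uncrossed and 878 without a block. Genes with few counts, such as Esrrb and the D18 level of Samd7 in RWB, are limited by depth.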
